A study of Homo sapiens with 12 samples.

Results

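The 10 genes described here encode proteins that set the lifetime of short-lived inflammatory mRNAs, and they were chosen by name from the 33093 genes with usable counts. The choice was made with earlier results of these data known. They are ZFP36, ZFP36L1 and ZFP36L2 (the ZFP36 family), ZC3H12A and ZC3H12C (Regnase endoribonucleases), RC3H1 and RC3H2 (Roquins), and the AU-rich element binding proteins ELAVL1 (HuR), HNRNPD (AUF1) and KHSRP (KSRP). All 10 passed the filter on low counts, as did 14383 genes in all, so no member is missing from any test. The data are RNA-seq counts per gene from HEK293T, a transformed human embryonic kidney line that is widely used for transfection and for work on NF-κB signalling. The 4 groups had 3 samples each (n = 3): WT cells left untreated, WT cells given 10 ng/ml TNFα for 3 h, NFKB1 S80A cells left untreated, and NFKB1 S80A cells given the same dose for the same time. The S80A cells carry a CRISPR/Cas9 knock-in that puts alanine in place of a serine (S80A) in p50, a DNA-binding subunit of NF-κB made from NFKB1. They derive from single cell clones picked by dilution and the number of clones sequenced is not given in the sources used here, so a difference between genotypes cannot be told apart from a difference between clones. Counts per gene cannot show the edited codon. The study describes the triplicates as independently generated without saying how, and the p-values below measure the spread between these samples.

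Many cytokine and immediate early mRNAs carry AU-rich elements, runs of the pentamer AUUUA in the 3′ UTR, and the proteins that bind there decide how long the message lasts. ZFP36 (tristetraprolin) and its paralogs ZFP36L1 and ZFP36L2 bind these elements through zinc fingers and recruit the CCR4-NOT deadenylase, which shortens the poly(A) tail and opens the message to decapping and exosome decay. ELAVL1 binds many of the same elements and usually stabilises the mRNA, KHSRP and some HNRNPD isoforms promote decay, and the Roquins and Regnases act on stem-loops, the first by recruiting deadenylases and the second by cutting the RNA. Several of these genes are themselves rapidly induced by cytokines in other cell types, and several of the transcripts they control belong to the NF-κB response, which is what makes them of interest beside a mutation in p50.

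In brief, ZFP36L1 was the member that passed the edgeR test described below with TNFα in both genotypes. It rose by 2.13-fold in WT cells and 2.01-fold in S80A cells. ZC3H12C rose by 1.67-fold and passed when averaged over both genotypes. ZFP36 stayed close to the bottom of the range of levels, with at most 67 reads in any library. No member passed the same test between genotypes, with or without TNFα. ZFP36 lay near the threshold and crossed it in some other fits. KHSRP was further from the threshold (edgeR adjusted p = 0.114 averaged over treatments). It crossed in that comparison alone, with a GC correction chosen after the data were seen or without the third untreated S80A sample.

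Total counts ran from 15624878 to 20889577 per sample. The first principal component (34.5% of the variance) separated the genotypes, and on the second (19.0%) the second untreated S80A sample lay at -39.0, outside the range of -11.7 to 23.1 covered by the other samples. That library also had the steepest relation of counts to GC content (-0.133 log2 units per 10 percentage points of GC). It held the lowest RC3H2 and KHSRP values and the highest HNRNPD and RC3H1 values of the series. Results of these genes that involve untreated S80A cells are therefore given below with and without it. Of 8 genes known from HEK293 lines all had a mean of at least 1 CPM (the usual unit of read counts scaled to library size) in both WT groups and 7 in both S80A groups. Of 9 markers of blood, endothelial, fibroblast and liver cells, PTPRC and CD3E had 0 counts in every library and PECAM1, CDH5, DCN and ALB at most 2. The summed level of these 9 markers was 15.4 to 17.6 CPM in WT libraries and 7.51 to 9.29 CPM in S80A libraries, most of it COL1A1, and its part in the genotype comparisons was not tested.

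Levels were compared between genes as CPM divided by the merged exon length in kilobases. The members spanned a wide range. KHSRP was the most abundant with 164.0 ± 0.733 (SD, n = 3) in untreated WT cells, followed by HNRNPD at 114.0 ± 9.58 and ELAVL1 at 33.6 ± 1.27. ZFP36L2 came next at 16.3 ± 0.704, then RC3H2 at 6.01 ± 0.778, ZFP36L1 at 3.59 ± 0.0949 and RC3H1 at 2.25 ± 0.362. ZC3H12A (1.54 ± 0.122), ZC3H12C (0.967 ± 0.216) and ZFP36 (0.79 ± 0.0576) were lowest, and the sample ranges of ZC3H12C and ZFP36 overlapped whereas all other neighbours in this order did not overlap. The general RNA-binding proteins thus headed the list and the Regnases and ZFP36 closed it. Exons of ZFP36L1 share 512 bases with a lncRNA on the same strand, and those of ZFP36L2, ELAVL1 and HNRNPD share 826, 528 and 250 bases with lncRNAs on the opposite strand. The strand setting of the counting is not given in the sources used here, so reads from these stretches may belong to either gene.

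After TNFα, ZFP36L1 moved above RC3H2, to 7.63 ± 0.656 against 6.59 ± 0.235 in WT cells, and to 6.78 ± 0.226 against 6.06 ± 1.09 in S80A cells, where the ranges of the pair overlapped. ZC3H12C likewise moved to a mean above that of ZC3H12A, at 1.79 ± 0.318 against 1.52 ± 0.3 in WT cells and 1.85 ± 0.467 against 1.48 ± 0.278 in S80A cells, with overlapping ranges in both. In untreated S80A cells the ranges of KHSRP and HNRNPD overlapped as well, and this overlap came from the second library of that group, in which HNRNPD reached 147.0 and KHSRP fell to 122.0. With the longest transcript as length in place of merged exons, HNRNPD (4597 in place of 7013 bases) had the higher mean of the pair in untreated S80A cells, at 176.0 ± 44.1 against 173.0 ± 23.1 for KHSRP with overlapping ranges, and the pair overlapped in treated S80A cells too. The order of the 10 means was otherwise the same in each group, and ZFP36L1 and RC3H2 no longer overlapped in treated S80A cells (9.66 ± 0.322 against 7.57 ± 1.37). The plot of levels per length shows the order by merged exons on a log axis.

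**Figure D1:**
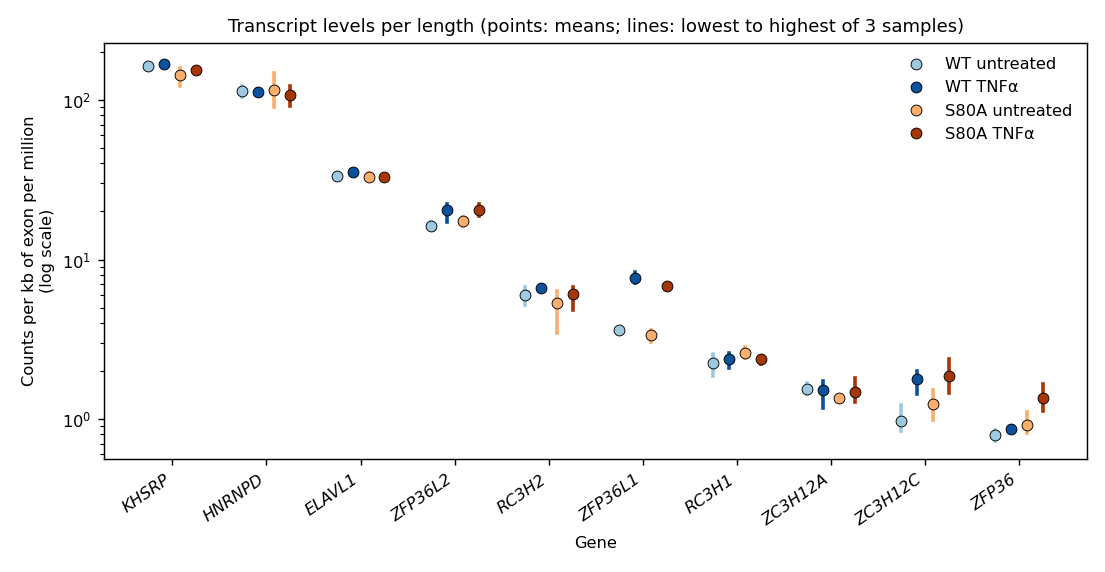
Mean level of each gene in CPM per kilobase of exon (log axis) in the 4 groups, with lines from the lowest to the highest of 3 samples. KHSRP stands at 164.0 and ZFP36 at 0.79 in untreated WT cells, and ZFP36L1 rises from 3.59 to 7.63 with TNFα.

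The next values are normalised read counts, in which each library was brought to the mean TMM-scaled size, and they compare samples for 1 gene rather than genes with each other. ZFP36L1 lies on the minus strand at chr14:68787660-68796253 of GRCh38. Its normalised counts were 429.6, 418.7 and 441.4 in untreated WT cells and 879.1, 1004 and 859.4 in TNFα-treated WT cells. In S80A cells they were 367.0, 410.9 and 434.1 untreated and 792.9, 843.5 and 801.6 after TNFα. Every treated sample was above every untreated sample in both genotypes. In bulk RNA, more cells with the transcript and more transcript per cell cannot be told apart. The rise was 1.09 ± 0.09 on the log2 scale (SE) in WT cells (edgeR quasi-likelihood test, Benjamini-Hochberg adjusted p = 8.82e-06) and 1.01 ± 0.09 in S80A cells (edgeR adjusted p = 1.31e-05). Ordered by p-value, ZFP36L1 was number 11 of 14383 genes for TNFα in WT cells and number 22 in S80A cells. ZFP36L1 kept its call for TNFα in both genotypes in every alternative fit and when any 1 of the 12 samples was left out. Treated S80A cells lay slightly below treated WT cells without overlap, yet the difference of -0.17 ± 0.09 did not pass the test (edgeR adjusted p = 0.273), and the response did not differ detectably between genotypes (interaction -0.08 ± 0.13, edgeR adjusted p = 0.932).

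**Figure D2:**
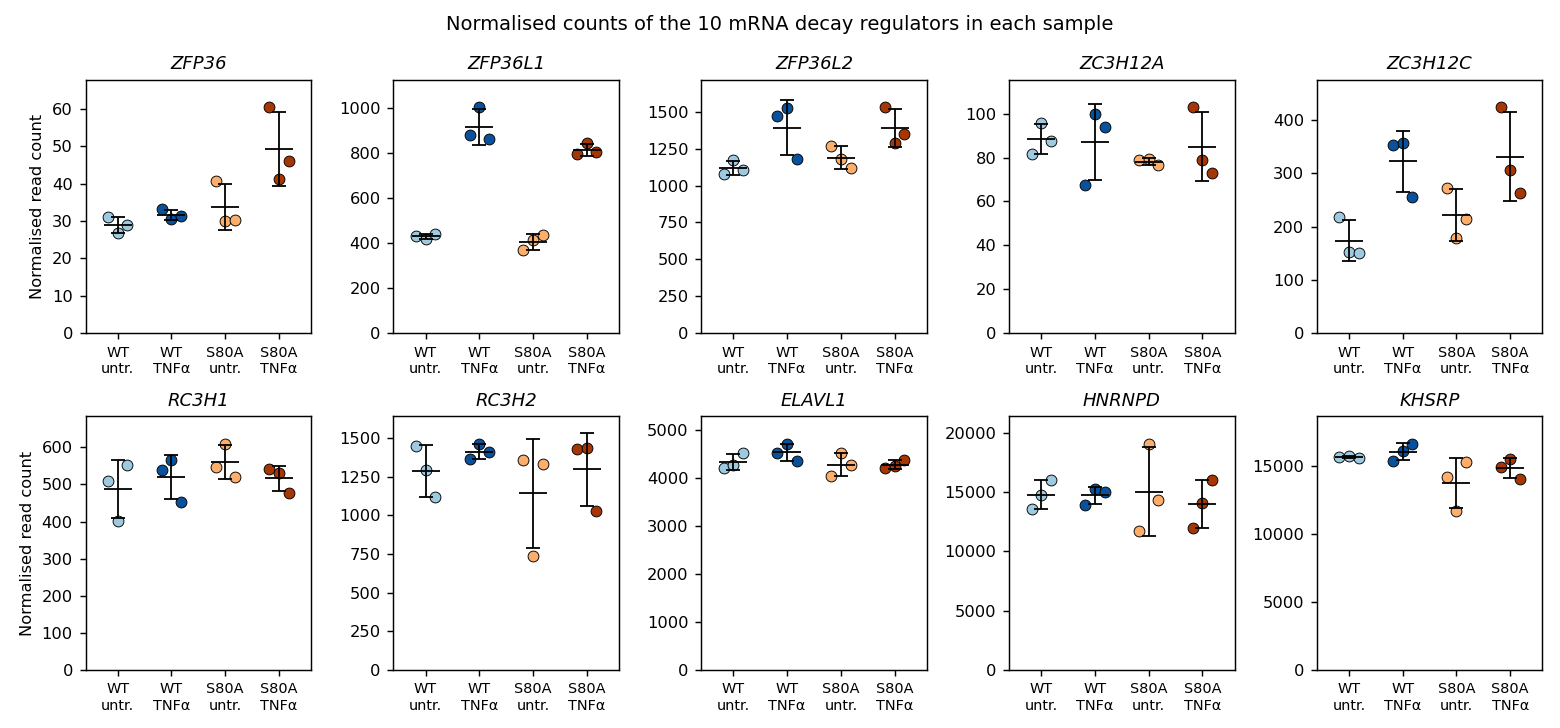
Normalised read counts (linear axes from 0) of the 10 genes in the 12 samples, with points for samples, horizontal bars for group means and error bars for SD. ZFP36L1 goes from 429.9 to 914.3 in WT cells and from 404.0 to 812.7 in S80A cells, whereas the treated and untreated points of RC3H1, ELAVL1 and HNRNPD overlap in both genotypes.

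The stretches upstream of the ZFP36L1 start sites are shown because it is the member that passed the test with TNFα in both genotypes. RefSeq gives 2 start sites, and the 150 bases before each (GRCh38, minus strand, chr14:68793417-68793566 and chr14:68796244-68796393, printed in the direction of the gene) read
ZFP36L1 start site 1: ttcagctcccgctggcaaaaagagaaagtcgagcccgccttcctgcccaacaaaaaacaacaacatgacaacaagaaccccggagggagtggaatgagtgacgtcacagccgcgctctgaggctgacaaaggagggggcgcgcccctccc
ZFP36L1 start site 2: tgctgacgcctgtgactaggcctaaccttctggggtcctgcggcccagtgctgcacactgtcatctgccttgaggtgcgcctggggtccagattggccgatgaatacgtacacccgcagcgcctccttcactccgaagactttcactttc
Both strands of the window from 250 bases before to 50 bases after each start were searched for the κB consensus, for a looser κB consensus and for the AP-1 letters TGANTCA. No match to any of them lay in either ZFP36L1 window. Of 35116 such windows in RefSeq, 5.91% held the κB consensus, 17.4% the looser form and 7.71% the AP-1 letters.

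Windows were found for 8 of the 10 members, all but ZFP36L2 and ELAVL1, and the κB consensus was present in 1 of these 8, RC3H2. The match can be read on both strands, as 2 overlapping matches from position -229 to -219 relative to the start. It is shown in capitals within 51 bases of the minus strand (chr9:122905558-122905608).
RC3H2: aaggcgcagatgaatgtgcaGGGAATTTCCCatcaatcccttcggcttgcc
RC3H2, a Roquin, did not pass the test with TNFα, as given below. Sites outside these windows were not searched, and a relation between matches and responses was not tested. The RC3H1 window (chr1:173993023-173993322) lies within that gene (chr1:173931084-174022357, minus strand). The annotated 5′ end of RC3H1 was therefore not searched. The looser consensus added KHSRP alone, and none of the 8 members held the AP-1 letters.

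ZFP36L2 (chr2:43222402-43226606) is the most abundant paralog in these cells and a known regulator of cell cycle transcripts. Its normalised counts were 1076, 1170 and 1107 in untreated WT cells and 1470, 1525 and 1177 after TNFα, against 1270, 1180 and 1116 in untreated S80A cells and 1533, 1285 and 1349 after TNFα. The treated samples were the higher ones in both genotypes without overlap, by narrow margins in each. The log2 differences of 0.32 ± 0.10 and 0.23 ± 0.10 did not pass the test (edgeR adjusted p = 0.428 in WT and 0.507 in S80A cells), and neither did their mean over genotypes of 0.27 ± 0.07 (edgeR adjusted p = 0.0819). Left out, the third treated WT sample, which is the lowest of its group, gave a mean over genotypes of 0.32 with an edgeR adjusted p of 0.0126, and DESeq2 gave 0.0237 with all 12 samples.

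ZFP36 (chr19:39406847-39409412), the founding member and a classic immediate early gene, was close to the lower limit of what these libraries resolve. It had 30, 30 and 28 raw reads in untreated WT cells and 32, 31 and 32 after TNFα. Untreated S80A cells had 44, 25 and 35 reads and treated S80A cells 67, 35 and 43. As normalised counts these were 31.06, 26.84 and 28.88, then 33.21, 30.62 and 31.32 in WT cells, and 40.77, 30.03 and 30.38, then 60.58, 41.29 and 46.14 in S80A cells. The treated S80A samples were above all other samples of the series, the lowest of them by a small margin. The log2 differences with TNFα, 0.13 ± 0.21 in WT and 0.55 ± 0.20 in S80A cells, did not pass the test (edgeR adjusted p = 0.997 and 0.343). After TNFα the S80A cells were 1.57-fold above the WT cells, 0.65 ± 0.20 on the log2 scale, which did not pass the test (edgeR adjusted p = 0.0666). This difference passed in 1 of 8 other fits, the one with the replicate number as an added term. The adjusted p-values of these fits ran from 0.0362 to 0.129. Averaged over treatments the genotype difference was 0.44 ± 0.15 (edgeR adjusted p = 0.0537), and the interaction was 0.42 ± 0.29 (edgeR adjusted p = 0.911). The averaged difference sits beside the threshold and crossed it under 5 of 7 other fits, with adjusted p-values between 0.0318 and 0.121.

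Within the ZFP36 family, ZFP36L2 therefore made up most of the transcripts per length. In untreated WT cells its share was 78.8% ± 1.17, with 17.3% ± 0.829 for ZFP36L1 and 3.82% ± 0.386 for ZFP36. After TNFα the ZFP36L1 share was 26.6% ± 1.87 and that of ZFP36L2 70.4% ± 2.06. S80A cells went from 15.6% ± 2.01 to 24.0% ± 2.28 for ZFP36L1. The shares of ZFP36L1 did not overlap between untreated and treated samples, which ranged from 13.5% to 17.8% and from 21.6% to 28.4% over both genotypes. The summed level of the family went from 20.7 ± 0.589 to 28.8 ± 3.23 CPM per kilobase in WT cells and from 21.7 ± 1.0 to 28.4 ± 1.97 in S80A cells. With the longest transcript as length the ZFP36L1 share was 22.9% ± 1.01 and 33.9% ± 2.14 in WT cells and 20.8% ± 2.53 and 30.8% ± 2.69 in S80A cells. Shares are relative, so part of each shift is fixed by the other paralogs.

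**Figure D3:**
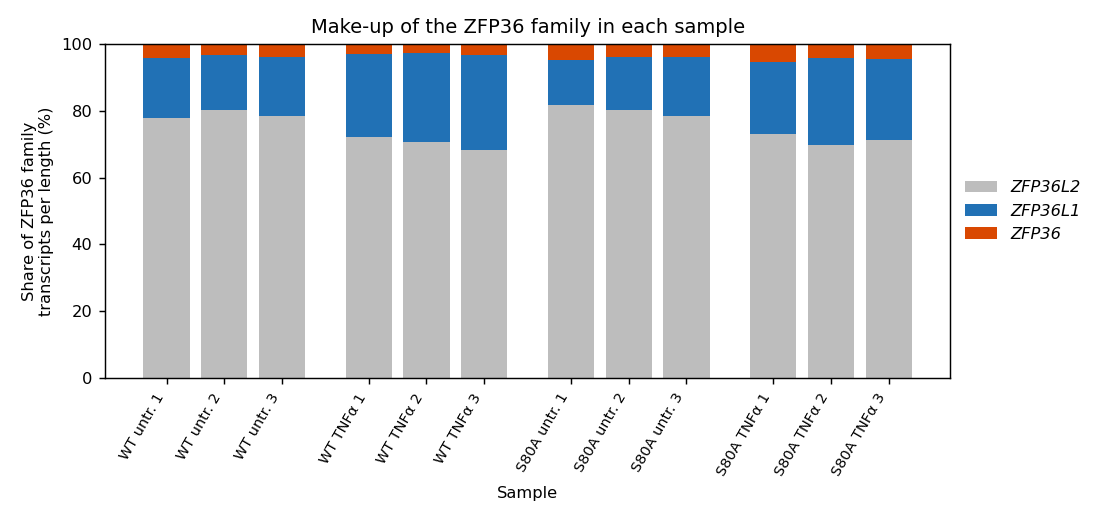
Share of each paralog in the summed ZFP36 family level (CPM per kilobase of exon, in percent) in each of the 12 samples. The ZFP36L1 share is at most 17.8% in untreated samples and at least 21.6% in treated samples.

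ZC3H12C (chr11:110093392-110171841), a Regnase paralog with a PIN-type nuclease domain, was the other member that passed the edgeR test for TNFα averaged over genotypes. Its normalised counts in WT cells were 218.4, 152.1 and 150.6 untreated and 352.9, 357.5 and 256.4 after TNFα. In S80A cells they were 273.4, 177.8 and 214.4 untreated and 424.9, 306.7 and 262.9 after TNFα. The WT groups did not overlap, whereas the lowest treated S80A sample lay below the highest untreated one. Replicates of this gene were widely spread, with coefficients of variation from 17.7% to 25.3% in the 4 groups. TNFα gave a log2 difference of 0.89 ± 0.21 in WT and 0.58 ± 0.21 in S80A cells, neither past the threshold (edgeR adjusted p = 0.0944 and 0.344). Averaged over genotypes it was 0.74 ± 0.15, 1.67-fold, and passed (edgeR adjusted p = 0.0142). In WT cells alone the call depended on the fit: 4 of 8 others passed it, DESeq2 among them (adjusted p = 0.00641), and so did the edgeR fit without the second untreated S80A sample (adjusted p = 0.0334). The averaged call was kept when any 1 of the 12 samples was left out, the highest edgeR adjusted p being 0.0495. The interaction was -0.32 ± 0.30 (edgeR adjusted p = 0.911).

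ZC3H12A (Regnase-1, chr1:37474580-37484377), the best known NF-κB-induced member of this nuclease family in macrophages, showed no such difference. Its normalised counts were 81.79, 95.72 and 87.66 in untreated WT cells, 67.47, 99.75 and 93.96 in treated WT cells, 78.77, 79.29 and 76.39 in untreated S80A cells and 103.1, 79.05 and 72.97 in treated S80A cells. The treated values of each genotype spanned the untreated ones. The log2 differences with TNFα were -0.02 ± 0.17 and 0.13 ± 0.17 (edgeR adjusted p = 0.998 and 0.847). Untreated S80A samples lay below untreated WT samples, by -0.18 ± 0.17 (edgeR adjusted p = 0.624). Of the pair, ZC3H12C held 38.3% ± 6.69 of the summed level per length in untreated WT cells and 54.1% ± 8.02 after TNFα, and 47.2% ± 5.42 and 55.2% ± 1.67 in S80A cells.

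The Roquins, RING-domain proteins that bind stem-loops in transcripts such as TNF and ICOS, did not pass the test in any comparison. RC3H1 (chr1:173931084-174022357) ranged from 400.8 to 610.3 normalised counts over the 12 samples, with log2 differences for TNFα of 0.09 ± 0.12 in WT and -0.11 ± 0.12 in S80A cells (edgeR adjusted p = 0.997 and 0.807). Its highest value was that of the second untreated S80A library, without which the difference in S80A cells was -0.05 ± 0.13 (edgeR adjusted p = 0.959). Between untreated genotypes RC3H1 differed by 0.20 ± 0.12 with that library and 0.14 ± 0.13 without it (edgeR adjusted p = 0.415 and 0.589). Averaged over genotypes its TNFα difference went from -0.01 to 0.02, and its interaction from -0.205 to -0.1445. RC3H2 (chr9:122844556-122905359) ranged from 737.6 to 1466. Its lowest value, 737.6, came from the second untreated S80A library, while the other 2 samples of that group had 1359 and 1333. With that library the genotype difference in untreated cells was -0.17 ± 0.19 and without it 0.07 ± 0.13 (edgeR adjusted p = 0.688 and 0.813). The TNFα difference of RC3H2 in S80A cells changed sign in the same way, from 0.18 ± 0.19 to -0.06 ± 0.13 (edgeR adjusted p = 0.797 and 0.956), and so did the interaction, from 0.04 to -0.19. RC3H2 was the more abundant of the pair, with 72.6% ± 4.88 of their summed level per length in untreated WT cells.

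Among the general AU-rich element binding proteins, ELAVL1 (chr19:7958573-8005659) gave no call in any comparison. Its normalised counts lay between 4040 and 4718 in all 12 samples, with coefficients of variation from 2.11% to 5.6%, and its log2 differences were 0.07 ± 0.07 with TNFα in WT cells, 0.00 ± 0.07 in S80A cells, -0.02 ± 0.07 between untreated genotypes and -0.08 ± 0.07 between treated ones. The smallest of its 4 edgeR adjusted p-values was 0.511. HNRNPD (chr4:82352498-82374503), whose splice forms differ in whether they protect or destabilise a target, ranged from 11684 to 19098, and the highest value was again the second untreated S80A library. Its difference between untreated genotypes was 0.02 ± 0.15 with that library and -0.18 ± 0.11 without it (edgeR adjusted p = 0.953 and 0.398). With TNFα in S80A cells HNRNPD was at -0.10 ± 0.15 with the library and 0.10 ± 0.11 without it (edgeR adjusted p = 0.864 and 0.908), and its interaction went from -0.09 to 0.11. Counts per gene do not separate the HNRNPD isoforms.

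KHSRP (chr19:6413102-6424811), which promotes decay of AU-rich transcripts and also takes part in miRNA maturation, had 15650, 15721 and 15580 normalised counts in untreated WT cells. The untreated S80A samples had 14190, 11689 and 15254, all below them. Treated WT cells had 15367, 16036 and 16611 and treated S80A cells 14864, 15488 and 14028, with 1 S80A value above the lowest WT value. The difference between untreated genotypes was -0.19 ± 0.09 (edgeR adjusted p = 0.244) and -0.08 ± 0.07 without the second S80A library (adjusted p = 0.538). Averaged over treatments it was -0.15 ± 0.06, 1.11-fold lower in S80A cells, and did not pass the test (edgeR adjusted p = 0.114), nor did it at -0.10 ± 0.05 without that library (edgeR adjusted p = 0.154). The TNFα difference in S80A cells was 0.11 with the library and 0.0035 without it, and the interaction 0.08 and -0.03, none past the test. With libraries corrected for GC content, a fit chosen after the data were seen, the genotype difference averaged over treatments passed (-0.16, edgeR adjusted p = 0.0421).

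**Figure D4:**
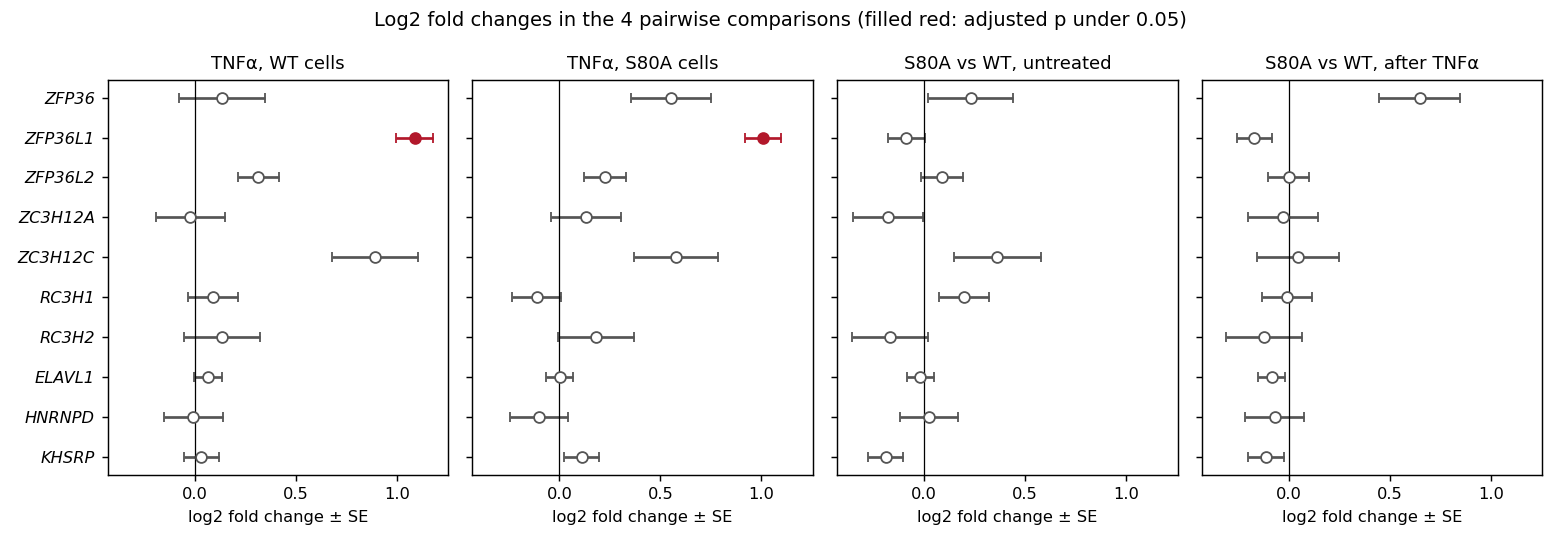
Log2 fold changes with their standard errors for the 10 genes in the 4 pairwise comparisons, filled red where the edgeR adjusted p was under 0.05. ZFP36L1 is the single filled point with TNFα, at 1.09 in WT and 1.01 in S80A cells, and no point is filled between genotypes.

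Counted over the list, 1 of 10 members passed the test with TNFα in WT cells (ZFP36L1, higher), against 0.688% of all genes in either direction and 0.577% higher. In S80A cells it was again ZFP36L1 alone, against 1.26% of all genes and 0.966% higher. Averaged over genotypes 2 of 10 passed, ZFP36L1 and ZC3H12C, against 2.17% of all genes and 1.36% higher. The median log2 difference of the members was 0.11 in WT and 0.16 in S80A cells (all genes: 0.00 in both), and 8 of 10 members had a positive value in each. Of these values, ELAVL1 (0.0003 ± 0.07), ZC3H12A and RC3H2 in S80A cells and RC3H1 in WT cells changed sign when 1 sample was left out. The share of positive values over all genes was not counted. Treated samples lay above untreated ones without overlap for 3 members in WT cells (ZFP36L1, ZFP36L2 and ZC3H12C), against 6.07% of all genes, and for 3 in S80A cells (ZFP36, ZFP36L1 and ZFP36L2), against 6.81%. The 2 TNFα comparisons share no samples, while those between genotypes reuse the same libraries. The study lists ZFP36L1 and ZC3H12C among its differentially expressed genes from the same samples, so these counts are not independent evidence.

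Between genotypes 0 of 10 members passed by edgeR or by DESeq2, in untreated cells (6.26% of all genes passed by edgeR) or after TNFα (7.36%). At an unadjusted p under 0.05 there was 1 member in each by edgeR, KHSRP untreated and ZFP36 after TNFα, against 19.7% and 22.3% of all genes. Averaged over treatments, a comparison in which 16.7% of all genes passed, no member did by edgeR or DESeq2, and 2 had an unadjusted edgeR p under 0.05, against 29.2% of all genes. The groups did not overlap for ZC3H12A and KHSRP in untreated cells (both lower in S80A cells, against 13.3% of all genes lower) and for ZFP36 and ZFP36L1 after TNFα (1 higher, against 13.0%, and 1 lower, against 13.2%). The interaction gave 0 calls over all 14383 genes by edgeR and by DESeq2, with 520 genes (3.62%) and no member at an unadjusted edgeR p under 0.05.

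The 3′ UTRs of the members were searched for ATTTA, the DNA letters of the AUUUA pentamer, since several of these proteins are known to act on their own messages. In the 3′ UTR of the canonical transcript of each gene (GENCODE release 44, GRCh38) 9 of 10 members held the pentamer, all but ZC3H12A, against 67.8% of 19206 coding genes. The heptamer TATTTAT, which contains it, was found in 7 of 10, against 31.8%. By density ZFP36 was highest with 7.06 pentamers per kb (5 in 708 bases), followed by RC3H2 (4.93), ZC3H12C (4.42) and ZFP36L1 (4.28), and KHSRP was lowest of those with a match at 0.52, while the median over coding genes was 1.53. UTR length differs between these sets, with a median of 1919 bases for the members and 1065 for coding genes. The 30 bases with the most pentamers are shown for the ZFP36 family, for ZC3H12C and ELAVL1, and for TNF and CXCL8 (IL8 in the count table) as target transcripts with tandem pentamers, with each pentamer in capitals and sequences read in the direction of the gene.
ZFP36: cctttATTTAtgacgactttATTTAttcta
ZFP36L1: cttATTTAacttatcaaaacgtATTTAttg
ZFP36L2: tgaaaactATTTAacttATTTAttatcttg
ZC3H12C: tagttaATTTAatatggtcaATTTAaaaga
ELAVL1: ttATTTAtacctATTTAtgtATTTATTTAt
TNF: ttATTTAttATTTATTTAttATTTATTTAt
CXCL8: cctATTTAttATTTAtgtATTTATTTAagc
These lie at chr19:39409188-39409217 (plus strand), chr14:68788345-68788374 (minus), chr2:43223452-43223481 (minus), chr11:110166427-110166456 (plus), chr19:7961839-7961868 (minus), chr6:31578000-31578029 (plus) and chr4:73743111-73743140 (plus). TNF had 5 pentamers in its 30 bases and CXCL8 and ELAVL1 4 each, whereas the windows of the ZFP36 family and ZC3H12C had 2.

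Among the genes with a mean of at least 1 CPM, those whose log2 CPM followed ZFP36L1 most closely over the 12 samples were IER3 (Pearson r = 0.976), NFKBIZ (0.971) and MAP3K8 (0.969). By rank they were TFAP2C (Spearman rho = 0.93), IKZF3 (0.916) and RHOB (0.909), so the measures named no gene in common. These values are a description over 13057 genes in samples that share libraries and fall into treated and untreated sets. IER3, an immediate early response gene, rose by 3.18 ± 0.11 on the log2 scale in WT cells and NFKBIZ, a nuclear IκB protein whose mRNA is a Regnase-1 target, by 1.33 ± 0.13 (edgeR adjusted p = 1.4e-10 and 4.51e-05). Both values are above that of ZFP36L1, a difference that was not tested.

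The machinery that these proteins recruit was read from lists of decay factors, with the shares of all genes as background. The study lists BTG2, CCRN4L, RQCD1, TOB1, PATL1, SAMD4A, RBM38, DUSP1 and MAP2K6 among its differentially expressed genes. It used the same samples, so the direction of these genes is not independent evidence. Of all genes, 0.577% were higher and 0.111% lower with TNFα in WT cells and 0.966% and 0.292% in S80A cells, while 2.05% were higher and 4.21% lower in untreated S80A than in untreated WT cells, and 2.92% and 4.44% after TNFα. Of 25 CCR4-NOT, PAN2-PAN3 and related deadenylation genes tested, 1 passed with TNFα in WT cells and 4 in S80A cells (3 higher, 1 lower), and 4 passed in each without the second untreated S80A library. BTG2, an anti-proliferative adaptor of the CCR4-NOT nuclease subunits, rose in both, by 0.98 ± 0.12 and 0.97 ± 0.12 (edgeR adjusted p = 0.000624 and 0.000473), from a mean of 362.0 to 711.0 normalised counts in WT and from 405.0 to 792.0 in S80A cells. CCRN4L (nocturnin) rose in S80A cells by 0.67 ± 0.14 (edgeR adjusted p = 0.0275), and RQCD1 (CNOT9) rose and TOB1 fell there as well. TOB1, another adaptor of the complex, was lower in S80A than in WT cells, by -0.37 ± 0.09 untreated and -0.47 ± 0.09 after TNFα (edgeR adjusted p = 0.0185 and 0.00496), the only list member called by edgeR between genotypes within a treatment. The median log2 difference of this list with TNFα was 0.05 in WT and 0.00 in S80A cells (all genes: 0.00).

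Of 26 decapping and 5′ to 3′ decay genes, 1 passed with TNFα in S80A cells, PATL1 (0.62 ± 0.11, edgeR adjusted p = 0.00818), a scaffold between the LSM ring and the decapping enzyme. In WT cells 0 passed by edgeR, with 2 at an unadjusted p under 0.05 (5.97% of all genes), and 1 by DESeq2, again PATL1. DDX6, a helicase of the same step, was higher in untreated S80A cells (0.27 ± 0.07, edgeR adjusted p = 0.0459), a call that was lost without the second untreated S80A library. Of 18 exosome and Ski complex genes 0 passed in any of the 4 pairwise comparisons by edgeR or DESeq2, with 0 at an unadjusted edgeR p under 0.05 for TNFα in either genotype (9.59% of all genes in S80A cells) and 1 in each comparison of genotypes.

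Among 34 other RNA-binding regulators of stability, SAMD4A and RBM38 rose with TNFα in both genotypes. SAMD4A (Smaug), a repressor that also recruits CCR4-NOT, rose by 0.91 ± 0.11 in WT and 0.87 ± 0.11 in S80A cells (edgeR adjusted p = 0.000292 and 0.000296). RBM38, a stabiliser of several cell cycle messages, rose by 0.39 ± 0.08 and 0.56 ± 0.08 (edgeR adjusted p = 0.033 and 0.00111) and was higher in S80A cells after TNFα (0.29 ± 0.08, adjusted p = 0.0381). CELF2, which binds GU-rich and AU-rich elements, was the list's largest difference between genotypes, 3.97-fold higher in untreated S80A cells and 3.17-fold after TNFα (edgeR adjusted p = 4.79e-07 and 2.16e-06), from means of 217.0 and 257.0 to 859.0 and 815.0 normalised counts. In untreated cells 3 of 34 were higher in S80A cells and after TNFα 2 of 34, with none lower by this fit. Without the second untreated S80A library 2 were lower after TNFα.

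Kinases, phosphatases and scaffolds that act on the members, such as the p38 to MK2 arm that phosphorylates ZFP36, gave 22 tested genes. DUSP1, the phosphatase that inactivates p38, rose with TNFα by 0.81 ± 0.08 in WT and 0.75 ± 0.08 in S80A cells (edgeR adjusted p = 6.07e-05 and 8.43e-05). MAP2K6, a kinase that activates p38, fell with TNFα in S80A cells by 0.65 on the log2 scale (SE 0.14, edgeR adjusted p = 0.0321), a call that was also lost without that library. It was also lower in S80A than in WT cells, by -0.90 ± 0.13 untreated and -1.03 ± 0.14 after TNFα (edgeR adjusted p = 0.000785 and 0.000446), while MAPK11 (p38β) was higher by 0.65 ± 0.16 and 0.59 ± 0.16 (edgeR adjusted p = 0.028 and 0.0436), the last of these not called by DESeq2. With TNFα 1 of 22 passed in WT cells and 3 of 22 in S80A cells (2 higher, 1 lower), where IKBKB was the other higher gene. Between genotypes 3 of 22 passed in untreated cells (1 higher, 2 lower) and 4 of 22 after TNFα (2 higher, 2 lower). The remaining genes among these were MAP2K3, lower in both, and MAPKAPK2 (MK2), higher after TNFα.

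**Figure D5:**
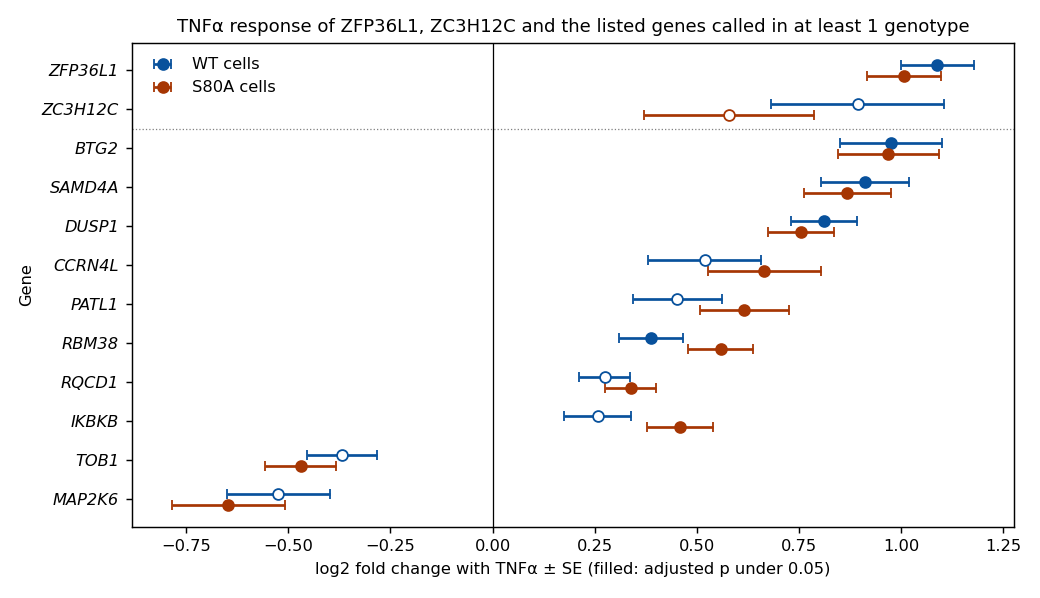
Log2 fold change with TNFα and its standard error in WT and S80A cells for ZFP36L1 and ZC3H12C (above the dotted line) and for the 10 genes of the decay factor and modifier lists that passed the test in at least 1 genotype, with filled points where the edgeR adjusted p was under 0.05. ZFP36L1, BTG2, SAMD4A, DUSP1 and RBM38 are filled in both genotypes.

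The transcripts that these proteins are known to control were counted last. Of 30 listed targets 23 passed the filter, and IL6, CSF2, IL1A, IL1B, CCL2, CCL20 and ICAM1 had at most 8 reads in any library. With TNFα 13 of 23 rose in WT cells and 14 of 23 in S80A cells and none fell, with median log2 differences of 1.73 and 2.30 (all genes: 0.00). After TNFα 9 of 23 were higher in S80A than in WT cells and 1, MYC, was lower. The study names several of these genes from the same samples, so the counts are not independent evidence of their direction. TNF had 0 counts in every untreated WT library and 27.0, 13.8 and 17.6 normalised counts after TNFα, at least 6.58-fold higher when each untreated library is set to 3 counts. In S80A cells the treated samples had 56.1, 51.9 and 61.2, 2.90-fold above treated WT cells (1.54 ± 0.29 on the log2 scale, edgeR adjusted p = 0.00789) and without overlap. IL8 went from at most 2 reads to 47.7, 44.4 and 34.3 normalised counts in WT cells and reached 221.0, 134.0 and 172.0 in S80A cells, 4.18-fold higher (2.06 ± 0.24, edgeR adjusted p = 0.000136). CXCL10, another chemokine, rose at least 16.7-fold in WT and at least 27.2-fold in S80A cells, computed in the same way. Both bounds depend on the depth of the untreated libraries and do not compare the genotypes. Treated S80A samples had 106.0, 59.0 and 79.4 normalised counts of CXCL10 and treated WT samples 65.4, 35.6 and 47.0, overlapping ranges whose 1.67-fold difference did not pass the test (edgeR adjusted p = 0.122). Set beside these, the 10 regulators in treated S80A cells stood at between 0.889 (ZFP36L1) and 1.57 times (ZFP36) their level in treated WT cells, none of them past the test.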

How the data were processed

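Libraries were made from poly(A)-selected RNA with a stranded TruSeq kit and sequenced as single-end reads of 75 bp. The authors aligned the reads to GRCh38 with HISAT and counted them per gene with HTSeq, and they deposited raw counts per gene symbol. The submitters' processing notes also name FastQC, StringTie and DESeq2. Versions and counting options are not given in the sources used here. The 2 other deposited tables hold the authors' own fold changes and p-values with normalised values for the genes listed there, and were not used.

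Of 33121 rows, 28 with entries turned into dates were left out (at most 0.2329% of a sample's counts). Each of the 12 count columns matched 1 sample by its title. The 14383 genes that passed filterByExpr (minimum count 10) entered 1 quasi-likelihood fit of edgeR 4.0.16 in R 4.3.3, with TMM scaling and the 4 groups as its terms. The 7 comparisons were TNFα within each genotype, genotype within each treatment, their interaction and both averaged effects, each adjusted over all genes tested by Benjamini-Hochberg (threshold 0.05). The standard error is the log2 fold change divided by the square root of F. The steps were tested on simulated data of the TNFα comparison in WT cells (14250 genes): 81% of genes changed by log2 1 and 98% of those changed by log2 2 were recovered, and 5.79% of calls were false. The simulated samples had no genotype difference and no outlying library, so these rates hold for that setting and not for the genotype comparisons.

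The members and gene lists were chosen with earlier results of these data known. All members are named, and for each list at most the 2 called genes with the largest difference and a mean of at least 1 CPM are given with values. The genes most like ZFP36L1 are the 3 with the highest Pearson correlation of log2 CPM. RQCD1, IKBKB, MAP2K3 and MAPKAPK2 fall outside these rules and were named after their values were seen. The values given for IER3 and NFKBIZ were chosen in the same way. Log2 CPM used a prior count of 2. Folds against groups with at most 3 counts per library use 3 counts per library and are lower bounds, which cover counting error only. Of the symbols, 22098 matched GENCODE release 44, whose merged exons gave lengths. Alternatives were the DESeq2 1.42.0 test, its size factors or total counts, no filter, a minimum of 10 counts per sample, a block for the replicate number, only the 6 samples compared, an added log2 threshold of 1, each sample left out and, for levels, the longest transcript as gene length. A GC correction and the list counts by DESeq2 and without the second untreated S80A library were added after seeing the data. A search of the member proteins for zinc fingers was not run.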

Additional observations from a re-analysis of the deposited data

How the results depend on the processing

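ZFP36L1 passed the edgeR test with TNFα in both genotypes under every alternative tried, and no alternative gave a gene past the threshold for the interaction. ZFP36 had no more than 67 reads in any library, which limits its precision, and each group had 3 samples. Of the values recomputed for single members, 1347 kept their direction and their side of the threshold, 73 changed sign, 19 passed the threshold that they had missed and 1 no longer passed it (ZC3H12C averaged over genotypes, 0.74, under the added log2 threshold). Changes of scaling moved the median of all genes by at most 0.026. Unless a construction names it (fewer samples, an added threshold), the cause of a change was not tested.

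Members called with TNFα in WT cells went from 1 to 2, by the addition of ZC3H12C, without a filter, with only the 6 samples compared and with DESeq2, and genes called there went from 99 to 149 with DESeq2 and 53 with the added log2 threshold. With only the 6 samples compared, genes called went from 181 to 71 for TNFα in S80A cells and from 900 to 456 between untreated genotypes. The added log2 threshold left 64 and 199 in these, 205 of 1058 between treated genotypes, 63 of 312 and 1 member for TNFα averaged over genotypes, and 230 of 2399 for genotype averaged over treatments. In that last comparison ZFP36 made 1 member called in place of 0 with DESeq2 size factors, total counts and a minimum of 10 counts per sample, and ZFP36 and KHSRP made 2 with the GC correction. With the longest transcript as gene length, 8 of 10 members kept their place in the order of levels over all samples, ZFP36L1 and RC3H2 changing places. The looser κB consensus gave 2 members with a match in place of 1, and Spearman in place of Pearson correlation named 0 of the same 3 genes most like ZFP36L1.

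With the replicate number as a block, ZC3H12C passed with TNFα in WT cells (0.91, edgeR adjusted p = 0.00472, 2 members called), ZFP36 passed between treated genotypes (0.63, edgeR adjusted p = 0.0362, 1 member) and averaged over treatments (0.42, edgeR adjusted p = 0.0318, 1 member), and ZFP36L2 passed with TNFα averaged over genotypes (0.27, edgeR adjusted p = 0.0487). The block changed no other member's call. Deviations of same-numbered samples correlated by -0.099 to 0.495, with a mean of 0.118 and over 0.1 in 9 of 18 pairs. Those of differently numbered samples had a mean of -0.059, and 9 of 12 samples correlated best with their own number. This is a hint from the data and not the design. Whether same-numbered samples were handled together is not given in the sources used here, and the main fit took the samples as independent.

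The members that changed sign with all samples in were not past the threshold in either fit. With the GC correction these were ZC3H12A with TNFα in WT cells (0.0407), RC3H1 between treated genotypes (0.107), KHSRP for the interaction (-0.0512) and HNRNPD, at 0.069 with TNFα in S80A cells, -0.0975 between untreated genotypes, 0.0754 between treated ones and 0.1729 for the interaction. ELAVL1 with TNFα in S80A cells was -0.0066 with total counts, -0.0031 without a filter, -0.0003 with a minimum of 10 counts and -0.0004 with 6 samples. Between treated genotypes, ZFP36L2 was 0.0119 with DESeq2 size factors, 0.0249 with total counts, 0.0027 with the block and 0.0116 with DESeq2, RC3H1 was 0.0054, 0.0187 and 0.0049 with size factors, total counts and DESeq2, and ZC3H12A was 0.0002 with total counts.

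Leaving out 1 sample at a time gave 65 to 145 genes and 1 to 2 members for TNFα in WT cells, 98 to 193 genes for TNFα in S80A cells, 356 to 1039 between untreated and 434 to 1646 between treated genotypes, and 0 to 1 members for genotype averaged over treatments. The lowest counts of genes came without the first untreated WT, the first treated S80A, the second untreated WT and the second treated WT sample, in that order, and 1646 came without the second untreated S80A sample. Sign changed for 25 values. They ranged, for TNFα in WT cells, from -0.1242 to 0.1304 (ZC3H12A), -0.032 to 0.1888 (RC3H1) and -0.0642 to 0.0541 (HNRNPD). For TNFα in S80A cells they ranged from -0.0404 to 0.2298 (ZC3H12A), -0.0552 to 0.3206 (RC3H2), -0.0394 to 0.038 (ELAVL1) and -0.2534 to 0.105 (HNRNPD). Between untreated genotypes the ranges were -0.3069 to 0.0673 (RC3H2), -0.0564 to 0.0206 (ELAVL1) and -0.1811 to 0.1764 (HNRNPD). Between treated genotypes they were -0.1041 to 0.0654 (ZFP36L2), -0.1994 to 0.0741 (ZC3H12A), -0.1791 to 0.1859 (ZC3H12C), -0.0944 to 0.054 (RC3H1), -0.2005 to 0.0167 (RC3H2) and -0.1793 to 0.0311 (HNRNPD). For the interaction they were -0.0191 to 0.2535 (ZC3H12A), -0.1907 to 0.184 (RC3H2), -0.2472 to 0.1103 (HNRNPD) and -0.03 to 0.1627 (KHSRP). For TNFα averaged over genotypes they were -0.0308 to 0.13 (ZC3H12A), -0.0731 to 0.0373 (RC3H1) and -0.1298 to 0.0498 (HNRNPD), and for genotype averaged over treatments -0.0074 to 0.0774 (ZFP36L2) and -0.126 to 0.0528 (HNRNPD). Averaged over treatments, ZFP36 passed without the second untreated (edgeR adjusted p = 0.0415) or the second treated S80A sample (0.0425), and KHSRP passed without the third untreated S80A sample (-0.20, edgeR adjusted p = 0.0497).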
